A study of Danio rerio with 44 samples.

Results

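The genes described across 3 fluorinated compounds are 5 small lipid-binding protein genes of the zebrafish embryo: both rows named FABP1 (ENSDARG00000059227 and ENSDARG00000019357), FABP6 (ENSDARG00000044566), RBP2 (ENSDARG00000070038) and FABP2 (ENSDARG00000006427). They were chosen by identifier, and FABP2 by its symbol, with earlier results of these data known. They are 5 of the 25859 genes in the table. All 5 passed the filter on low counts, which left 22703 genes tested.

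RNA was sequenced from 44 pools of 20 whole embryos of genotype WT, exposed for 72 h from 24 to 96 hours post fertilization (hpf). Each compound, PFOS (perfluorooctane sulphonate), PFECHS (perfluoroethylcyclohexane sulphonate, with a ring in its chain) or FBSA (perfluorobutane sulphonamide, an amide on a chain shorter than that of PFOS), was given at 0.001, 0.1, 1 or 5 mg/L, and each had its own solvent control. The carrier was 0.1% DMSO, which the solvent controls received too. There were 15 groups of 3 pools, except FBSA at 0.1 mg/L, which had 2. The labels do not say whether the pools of a group came from separate clutches, and each p-value therefore reflects pool-to-pool spread, which may be technical. Library totals ran from 24478738 to 36533705 counts and 0 libraries were identical. Pools of a group differed most in the FBSA series, where the median gene had a within-group standard deviation (SD) of 0.386 in log2 counts-per-million (CPM), against 0.255 for PFOS and 0.252 for PFECHS.

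Fatty acid binding proteins (FABPs) are small cytosolic carriers that hold fatty acids and related lipids inside a barrel-shaped fold and move them between membranes and enzymes. The intestine uses a set of them: FABP2 is the intestinal form found in absorptive enterocytes, FABP1 is the form of liver and proximal intestine and also binds bile acids and other bulky ligands, and FABP6, or gastrotropin, carries bile acids in the distal intestine. RBP2 belongs to the same protein family and holds newly absorbed retinol in enterocytes so that it can be esterified. In mammals FABP1 is a well-known target of the fatty acid receptor PPAR alpha.

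FBSA at 5 mg/L was the only single concentration of any compound at which one of the 5 genes passed the test. FABP1 ENSDARG00000059227, FABP6 and RBP2 fell there by 6.38-fold, 4.97-fold and 2.61-fold. PFOS and PFECHS gave no call among them at any concentration. In pools of whole embryos, fewer cells of a type and less RNA per cell cannot be told apart. These values are edgeR quasi-likelihood tests with Benjamini-Hochberg adjustment over all genes, called at an adjusted p under 0.05, and fold changes are on the log2 scale with their standard error (SE). When the fit was restricted to FBSA libraries, in place of all 44, edgeR called 0 of the 5 at FBSA 5 mg/L. Of the 5, 4 had an unadjusted p under 0.05, as did 3548 of all genes. The adjusted p by edgeR was 0.208 for FABP1 ENSDARG00000059227, 0.28 for FABP6 and 0.233 for RBP2. Their log2 fold changes were -2.66, -2.29 and -1.37.

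Levels are given in CPM, scaled by each library's TMM-adjusted total and not by gene length, so they are compared between pools and not between genes. FABP1 ENSDARG00000059227 stood at 123, 190 and 59.14 CPM in the 3 FBSA control pools and at 24.3, 23.2 and 10.9 CPM in the 3 pools at 5 mg/L. All exposed pools lay below all control pools. The log2 fold change was -2.67 ± 0.64 (SE, n = 3 against 3, adjusted p = 0.00846, edgeR). Between these ends, the pools at 0.001 mg/L held 185, 59.15 and 52.9 CPM, those at 0.1 mg/L 121 and 60.6, and those at 1 mg/L 19.4, 10.2 and 114. One pool in each of the 3 groups thus lay near the upper control pools, and at 1 mg/L the other two were as low as the pools at 5 mg/L.

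FABP6, the bile acid carrier, held 62.4, 36.1 and 25.4 CPM in the FBSA controls and 14.5, 9.87 and 0.529 CPM at 5 mg/L, again without overlap. Its log2 fold change was -2.31 ± 0.69 (adjusted p = 0.0285, edgeR). The lowest of these pools carried 15 counts of the gene, against 923 or more in each control pool. At 1 mg/L the pools held 11.9, 4.6 and 23 CPM, all below the controls, with a log2 fold change of -1.65 ± 0.67 that did not pass (adjusted p = 0.609, edgeR). At 0.001 mg/L the pools held 64.9, 13 and 10.8 CPM and at 0.1 mg/L 39 and 22.4, and both groups overlapped the controls.

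RBP2, the enterocyte retinol carrier, held 62.2, 65.1 and 49.7 CPM in the FBSA controls. The pools at FBSA 5 mg/L held 35.7, 20.05 and 12 CPM. No exposed pool reached a control pool, and the log2 fold change was -1.39 ± 0.33 (adjusted p = 0.00832, edgeR). At 1 mg/L RBP2 held 17.7, 19.1 and 61.1 CPM, so 2 pools were low and the other lay among the controls. At 0.001 mg/L (86.2, 46.4 and 48.7 CPM) and 0.1 mg/L (66.2 and 55.5 CPM) the gene overlapped its controls, with log2 fold changes of 0.036 ± 0.32 and 0.045 ± 0.36.

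FABP2, the intestinal form, held 232, 227 and 80.6 CPM in the FBSA controls and 70.3, 89.4 and 43.3 CPM at 5 mg/L. The groups overlapped, because the control pool at 80.6 CPM lay below the exposed pool at 89.4. The log2 fold change of -1.41 ± 0.54 did not pass (adjusted p = 0.0837, edgeR), whereas DESeq2 gave -1.39 ± 0.51 and an adjusted p = 0.043. Its pools at 0.001 mg/L ranged from 87.4 to 351 CPM, those at 0.1 mg/L held 241 and 109, and those at 1 mg/L 55.1, 19.5 and 148.

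The other FABP1 row, ENSDARG00000019357, was barely detected. Its 44 pools held 0 to 29 counts each, 10 pools had none and 22 had 3 counts or fewer, the floor used here, which equals 0.0826 to 0.128 CPM. The counts were 8, 8 and 29 in the FBSA controls, 14, 8 and 10 at 0.001 mg/L, 2 and 0 at 0.1 mg/L, 0, 1 and 0 at 1 mg/L, and 3, 0 and 0 at 5 mg/L. Summed over pools, 3 counts at 5 mg/L against 45 in the controls gave a ratio of 0.0747 to the control, with a 95% exact counting interval from 0.0149 to 0.233. The ratio was 0.0248 at 1 mg/L (0.000614 to 0.145), 0.0727 at 0.1 mg/L (0.00854 to 0.278) and 0.768 at 0.001 mg/L (0.472 to 1.24). These intervals cover counting error only, not the spread between pools, and the fitted log2 fold change at 5 mg/L (-3.52 ± 1.26, adjusted p = 0.0621, edgeR) depends on the prior count and is no bound. DESeq2 gave this row no adjusted p at FBSA 5 mg/L, and a gene without one counts as not called in the DESeq2 counts below. The 2 FABP1 rows share a symbol, and whether any reads fit both and were divided between them was not tested.

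**Figure D1:**
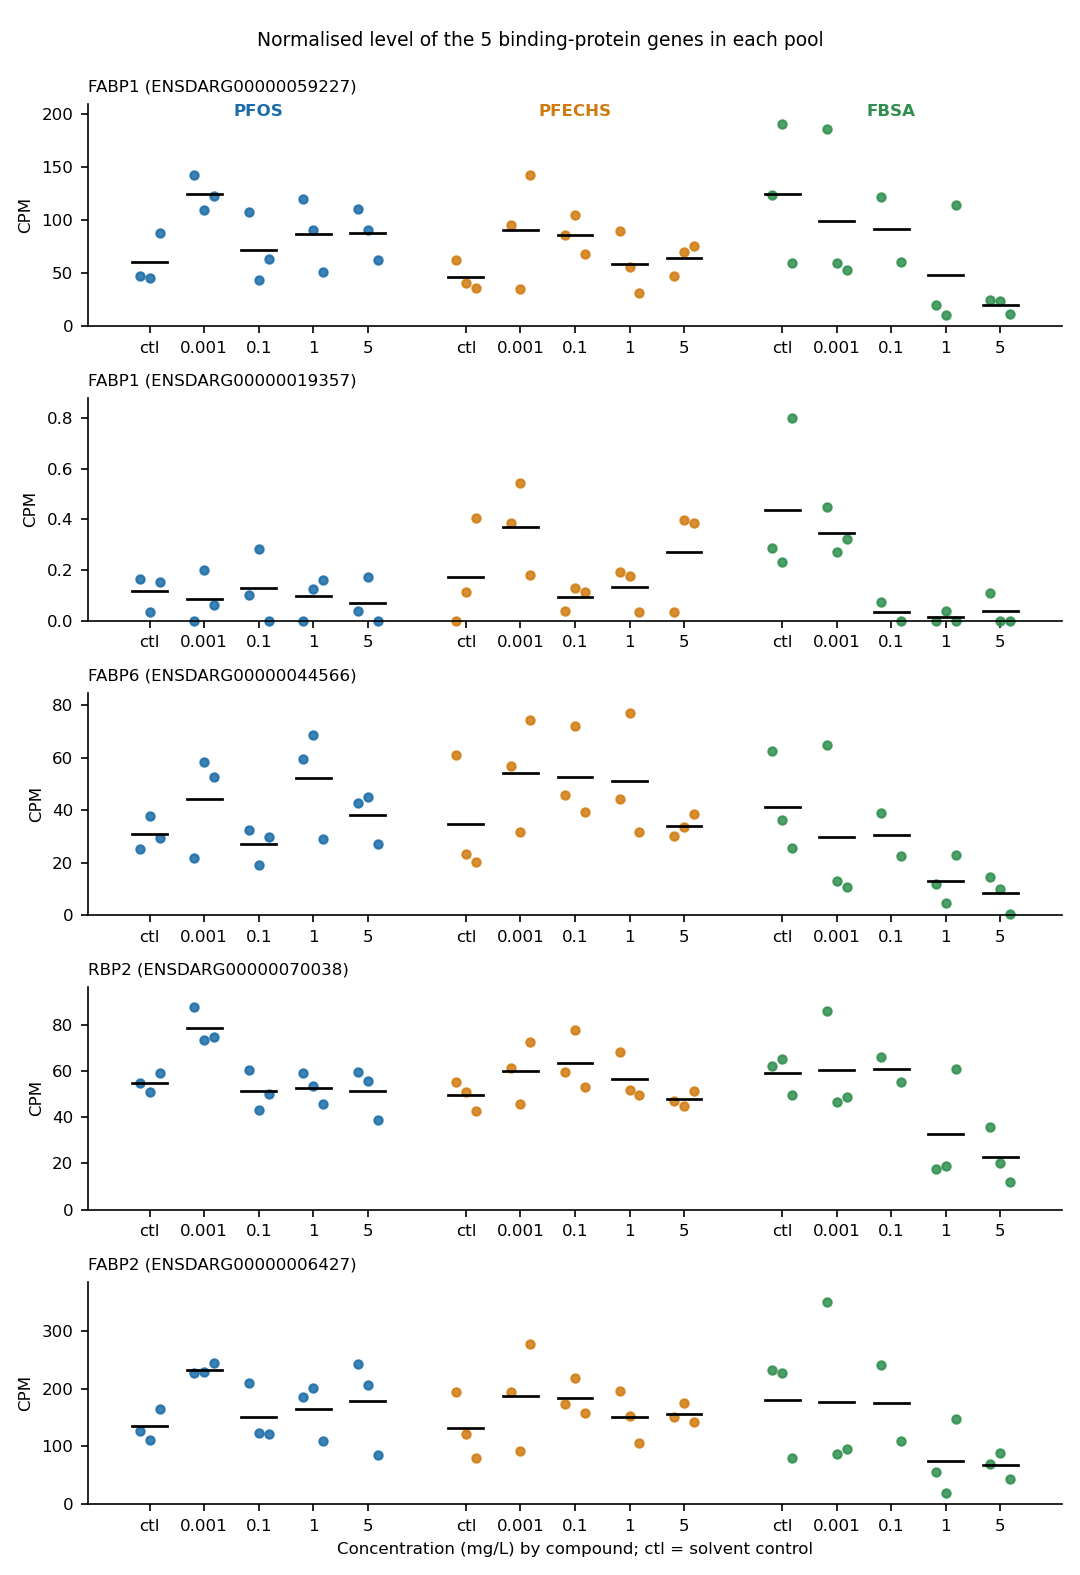
CPM (vertical axis, from 0) of each of the 5 genes in each of the 44 pools, by compound and concentration in mg/L, with ctl for the solvent control and a bar for the group mean. The FBSA pools at 5 mg/L lie below all FBSA controls for each gene but FABP2 (10.9 to 24.3 CPM for FABP1 ENSDARG00000059227), single FBSA pools at the lower concentrations are high, and the PFOS and PFECHS groups overlap their controls except for FABP1 ENSDARG00000059227, RBP2 and FABP2 at PFOS 0.001 mg/L and FABP1 ENSDARG00000059227 at PFECHS 0.1 mg/L.

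Counted together at FBSA 5 mg/L, 3 of the 5 genes were called, all lower. Of all genes tested, 11.2% were called there in either direction and 5.44% were called lower. In 4 of the 5, all but FABP2, every exposed pool was below every control pool, which held for 9.27% of all genes. The 5 genes were chosen with earlier results of these data known. Setting them beside these shares is therefore description and not a test. The median log2 fold change of the 5 was -2.31, against -0.014 over all genes. At 1 mg/L edgeR and DESeq2 each called 0 of the 5. By edgeR 5 of 5 had an unadjusted p under 0.05, as did 1499 of all 22703 genes. The 4 well-detected genes had log2 fold changes from -1.65 to -0.85. The share of all genes called at 1 mg/L by edgeR was also 0%, while DESeq2 called 35 genes, edgeR called 89 without replicate 3 of that group, and 921 were called against the 9 controls of all compounds. Both FABP6 and the low FABP1 row lay below all controls at 1 mg/L, which held for 2.94% of all genes, and the low FABP1 row did so at 0.1 mg/L, which held for 7.73%. Without replicate 3 of the 1 mg/L group, the high pool, FABP1 ENSDARG00000059227 (-3.07, adjusted p = 0.0215) and RBP2 (-1.68, adjusted p = 0.0134) were called at that concentration by edgeR. At 0.001 and 0.1 mg/L the call count was 0 of 5 by either tool, and edgeR called 0% of all genes at each. By edgeR 0 and 1 of the 5 had an unadjusted p under 0.05, as did 259 and 731 of all genes.

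Each of the 3 calls at 5 mg/L depended on single pools. Leaving out control replicate 2 or the exposed replicate 3 ended all 3 calls: the adjusted p-values were 0.0699, 0.0812 and 0.051 without the former and 0.116, 0.193 and 0.137 without the latter, for FABP1 ENSDARG00000059227, FABP6 and RBP2 in that order. Leaving out control replicate 1 ended the call of FABP6 (adjusted p = 0.0875). FABP6 also missed the threshold in the first 33 libraries of the table (-2.91 ± 0.78, adjusted p = 0.0545), where FBSA keeps 1 control pool and its spread is taken from the other groups.

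Over the whole FBSA series a linear trend with equal steps from the control to 5 mg/L was tested. It shares the control and 5 mg/L pools with the comparison at 5 mg/L. All 5 genes were called lower by edgeR, against 11.2% of all genes called and 5.57% called lower. The fitted fall per step on the log2 scale was 0.64 ± 0.14 for FABP1 ENSDARG00000059227 (adjusted p = 0.00389, edgeR) and 0.58 ± 0.15 for FABP6 (0.0134). For RBP2 it was 0.37 ± 0.07 (0.00183), for FABP2 0.41 ± 0.12 (0.0273) and for the low FABP1 row 1.15 ± 0.29 (0.0104). The low row held 3 counts or fewer in each pool from 0.1 mg/L up, so its slope is no bound. A slope does not show an even fall. RBP2 averaged 59 CPM in the controls, 60.4 at 0.001 mg/L, 60.9 at 0.1 mg/L, 32.6 at 1 mg/L and 22.6 at 5 mg/L. Without the exposed replicate 3 at 5 mg/L, 2 of the 5 calls were left, and with only the FBSA libraries 0. In that FBSA fit all 5 had an unadjusted p under 0.05, as did 3419 of all genes (edgeR). Among the 4 exposed groups alone, leaving the controls out, 2 of the 5 were called lower, where 7.35% of all genes were called and 3.79% lower. These were FABP1 ENSDARG00000059227 (-0.80 ± 0.20 per step, adjusted p = 0.0148) and RBP2 (-0.52 ± 0.11, adjusted p = 0.00341). FABP2 (-0.54 ± 0.17, adjusted p = 0.0515) and FABP6 (-0.67 ± 0.22, adjusted p = 0.0524) missed the threshold, and DESeq2 called both. The mean of the 4 FBSA concentrations against the control gave 0 of 5 calls by either tool, and edgeR called 0% of all genes. By edgeR 4 of the 5 had an unadjusted p under 0.05, as did 1561 of all genes.

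**Figure D2:**
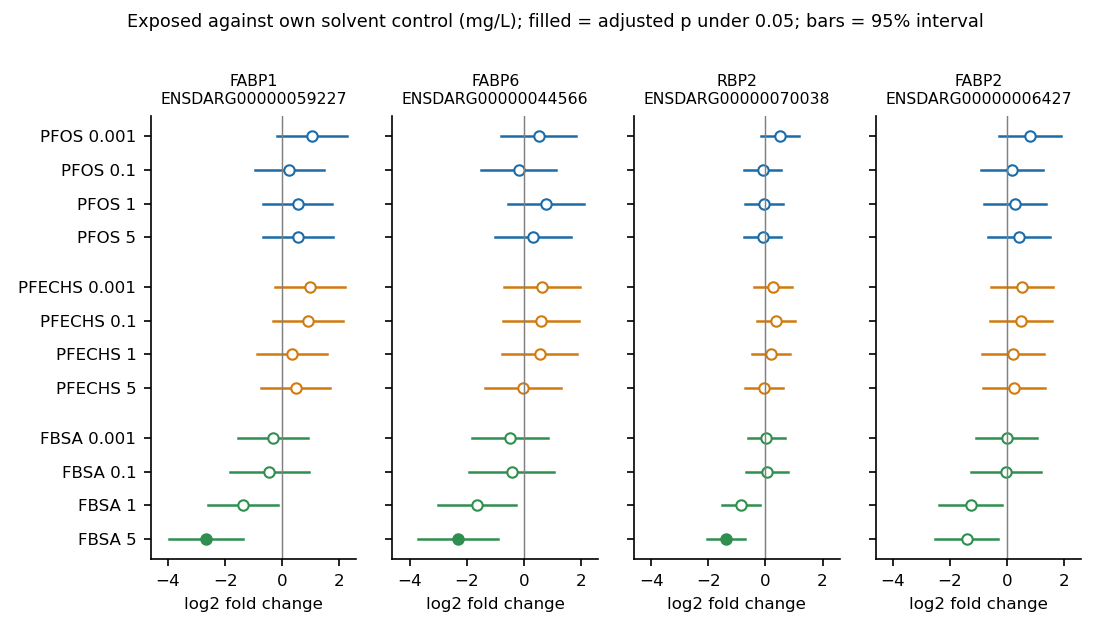
Log2 fold change of the 4 well-detected genes at each concentration against the compound's own solvent control, with 95% intervals; a filled point marks an adjusted p under 0.05. The filled points are the 3 at FBSA 5 mg/L (-2.67, -2.31 and -1.39), and the intervals of every PFOS and PFECHS value include 0.

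Under PFOS none of the 5 genes was called at any concentration by edgeR or DESeq2, and none had an unadjusted p under 0.05. Of all genes edgeR called 0% at 0.001 mg/L, 0.0176% at 0.1 mg/L, 0.00881% at 1 mg/L and 0.0132% at 5 mg/L. These shares depended on the processing: the 4 genes at 0.1 mg/L became 376 with only PFOS libraries and 46 by DESeq2, the 2 at 1 mg/L became 27 by DESeq2, and the 3 at 5 mg/L became 92 with table place as a term, 40 with only PFOS libraries, 60 in the first 33 libraries and 98 by DESeq2. FABP1 ENSDARG00000059227 held 47.5, 45.4 and 87.4 CPM in the PFOS controls and 110, 90.4 and 62.6 CPM at 5 mg/L, a log2 fold change of 0.54 ± 0.60 with a 95% interval from -0.68 to 1.77. Its 4 fold changes under PFOS lay above 0, from 0.25 to 1.05 on the log2 scale, and share the same control pools; at 0.1 mg/L the sign turned without replicate 1 (-0.14). The values ran from -0.18 to 0.77 for FABP6, from -0.10 to 0.52 for RBP2 and from 0.17 to 0.79 for FABP2.

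The highest group means of FABP1 ENSDARG00000059227, RBP2 and FABP2 in the whole series were those at PFOS 0.001 mg/L, the lowest concentration. For FABP1 ENSDARG00000059227 this mean, 124.7 CPM, was all but matched by the FBSA solvent controls at 124.3 CPM, whose range overlapped it. At PFOS 0.001 mg/L FABP1 ENSDARG00000059227 held 142, 109 and 123 CPM. RBP2 held 87.6, 73.7 and 74.8 against 54.9, 51.2 and 59 in the PFOS controls, and FABP2 227, 228 and 244 against 127, 111 and 165. For all 3 genes the exposed pools lay above every control pool. This held for 16.4% of all genes at that concentration, and none of the 3 passed the test (log2 fold changes of 1.05 ± 0.60, 0.52 ± 0.32 and 0.79 ± 0.54, adjusted p from 0.612 to 0.615, edgeR).

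PFECHS likewise gave 0 calls among the 5 genes by either tool, none at an unadjusted p under 0.05, and 0% of all genes were called by edgeR at each of its 4 concentrations (1 to 3 genes by DESeq2). FABP1 ENSDARG00000059227 held 62.2, 40.9 and 35.9 CPM in the PFECHS controls and 47.4, 69.3 and 75.1 CPM at 5 mg/L, a log2 fold change of 0.47 ± 0.60 with a 95% interval from -0.76 to 1.69. At 0.1 mg/L its pools (85.9, 105 and 67.6 CPM) lay above all controls, as did those of 9.14% of all genes, with a log2 fold change of 0.89 ± 0.60 that did not pass (adjusted p = 0.853). Over the 4 concentrations the log2 fold changes ran from -0.031 to 0.64 for FABP6, from -0.052 to 0.36 for RBP2 and from 0.20 to 0.51 for FABP2.

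Trends over PFOS or PFECHS concentrations called none of the 5 genes by edgeR or DESeq2, and none had an unadjusted p under 0.05. The shares of all genes called were 0.348% for the PFOS trend from the control, 0.0176% for the order of the PFOS groups without it and 0.0132% for the mean of the PFOS concentrations, and 0% for each of the same PFECHS comparisons. The low FABP1 row held 0 to 10 counts in the PFOS pools and 0 to 17 in the PFECHS pools, and no fold is drawn from it.

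The change from the control was then compared between compounds at matched concentrations, in 12 differences, each adjusted over all genes. At 5 mg/L the change of FABP1 ENSDARG00000059227 under PFOS exceeded that under FBSA by 3.22 ± 0.87 on the log2 scale (adjusted p = 0.0326, edgeR). Here 4.92% of all genes were called and 2.3% were called with FBSA lower. Under PFECHS it exceeded that under FBSA by 3.14 ± 0.87 (adjusted p = 0.0242, edgeR), where 9.17% of all genes were called and 4.81% with FBSA lower. It was the only one of the 5 genes called, in both differences. RBP2 differed by 1.29 ± 0.46 (adjusted p = 0.0854) and 1.33 ± 0.46 (0.0613), FABP6 by 2.63 ± 0.94 (0.0854) and 2.28 ± 0.94 (0.111), and FABP2 by 1.81 ± 0.76 (0.138) and 1.66 ± 0.76 (0.155), for PFOS and PFECHS in that order. Both calls of FABP1 were lost with only the libraries compared (adjusted p = 0.0761 and 0.062), and the second in the first 33 libraries (adjusted p = 0.0766). Leaving out FBSA control replicate 2 (adjusted p = 0.132 and 0.0996) or FBSA 5 mg/L replicate 3 (0.134 and 0.0991) also ended both. Leaving out any of 4 single PFOS pools ended the first call (adjusted p from 0.059 to 0.084), and any of 3 single PFECHS pools ended the second (0.0504 to 0.0611).

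Between PFOS and PFECHS, a chain and a ring sulphonate, none of the 5 genes was called at any concentration by edgeR or DESeq2 (0 calls, adjusted p = 1, none at an unadjusted p under 0.05), and 0% of all genes were called by edgeR. A missed threshold does not show that the compounds act alike. At 5 mg/L the 95% interval of PFOS minus PFECHS ran from -1.65 to 1.80 for FABP1 ENSDARG00000059227, from -1.52 to 2.21 for FABP6, from -0.98 to 0.88 for RBP2 and from -1.37 to 1.69 for FABP2. Below 5 mg/L, neither PFOS minus FBSA nor PFECHS minus FBSA called any of the 5 genes by either tool, and 0% of all genes were called by edgeR at each. At 1 mg/L the unadjusted p was under 0.05 for 4 of the 5 against PFOS and 3 of the 5 against PFECHS. By edgeR it was so for 1876 and 783 of all 22703 genes.

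The controls enter these differences too. FABP1 ENSDARG00000059227 averaged 124 ± 65.6 CPM (SD, n = 3) in the FBSA controls, 60.1 ± 23.6 in the PFOS controls and 46.3 ± 13.9 in the PFECHS controls. The PFECHS controls lay below the FBSA controls by a log2 fold change of -1.42 ± 0.61, which did not pass (adjusted p = 0.162, edgeR). Of the 5 genes, 0 were called between any pair of controls by edgeR or DESeq2. By edgeR 1 had an unadjusted p under 0.05, between the PFECHS and FBSA controls, as did 5185 of all genes there. Of all genes, edgeR called 0%, 0.15% and 0% for PFOS against PFECHS, PFOS against FBSA and PFECHS against FBSA controls. DESeq2 called 1, 597 and 1317 genes in these comparisons. Without FBSA control replicate 3 edgeR called 1653 genes between the PFECHS and FBSA controls, and without FBSA control replicate 1 it called 271 between the PFOS and FBSA controls. Taking all 9 control pools as the control, an alternative added after these values had been seen, gave -1.85 ± 0.55 for FABP1 ENSDARG00000059227 at FBSA 5 mg/L (adjusted p = 0.0395), -2.09 ± 0.61 for FABP6 (0.0352) and -1.27 ± 0.29 for RBP2 (0.00608).

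Ordered by mean level over the 15 groups, FBSA 5 mg/L was lowest for the 4 well-detected genes and FBSA 1 mg/L for the low FABP1 row. FABP1 ENSDARG00000059227 averaged 19.5 ± 7.41 CPM at FBSA 5 mg/L, and the next group up, the PFECHS controls, did not overlap it. That was the 1 pair of the 14 neighbouring pairs in its order that did not overlap. For each of the other genes all 14 neighbouring pairs overlapped. FABP2 averaged 67.7 ± 23.1 CPM in the lowest group and 233 ± 9.52 in the highest, RBP2 22.6 ± 12.1 and 78.7 ± 7.76, and FABP6 8.3 ± 7.12 at FBSA 5 mg/L and 54.4 ± 21.6 at PFECHS 0.001 mg/L.

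Spread within groups was wide in the FBSA series. The standard deviation of log2 CPM around the group means was 1.51 for FABP6 under FBSA against 0.543 and 0.6 under PFOS and PFECHS, 1.12 for FABP1 ENSDARG00000059227 against 0.511 and 0.642, 1.03 for FABP2 against 0.484 and 0.522, and 0.653 for RBP2 against 0.218 and 0.245. The single fit shares its spread over the 3 compounds.

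From pool to pool, 4 of the genes varied together, FABP6 less closely than the rest. Across the 44 pools the Pearson correlation of log2 CPM was 0.915 between FABP1 ENSDARG00000059227 and FABP2 (Spearman 0.892) and 0.894 between FABP1 ENSDARG00000059227 and RBP2 (Spearman 0.891). Without the 2 most extreme pools these were 0.881 and 0.845, and after subtracting the group means 0.92 and 0.861. Within the PFOS, PFECHS and FBSA pools FABP1 ENSDARG00000059227 and FABP2 correlated at 0.869, 0.916 and 0.936. FABP6 correlated with the same 3 genes at 0.759 to 0.827 over all pools. Without the 2 most extreme pools its values were 0.646 (FABP1 ENSDARG00000059227), 0.671 (RBP2) and 0.771 (FABP2). Within the PFOS pools they were only 0.495, 0.296 and 0.539, against 0.733, 0.744 and 0.798 within PFECHS and 0.846, 0.87 and 0.79 within FBSA. The low FABP1 row correlated with the 4 others at 0.169 to 0.285. These are descriptions over pools that share libraries, depth and control groups. Likeness was searched only among the other tested genes with a symbol, leaving out provisional names. The gene most like FABP2 among them was chia.2 (ENSDARG00000099185, an acidic chitinase gene) at r = 0.979. The one most like both FABP1 ENSDARG00000059227 (0.951) and RBP2 (0.915) was ela2l (ENSDARG00000056765, a pancreatic elastase). For FABP6 it was TDO2 (ENSDARG00000071429, tryptophan dioxygenase, 0.91) and for the low FABP1 row ABCA4 (ENSDARG00000057169, a retinal transporter of photoreceptors, 0.673). Most like the mean of all 5 were TDO2 (0.93), cyp2n13 (ENSDARG00000042953, a cytochrome P450, 0.929), GDA (ENSDARG00000002986, guanine deaminase, 0.925), SLC26A3 (ENSDARG00000003615, an intestinal chloride exchanger, 0.922) and ANPEP (ENSDARG00000103878, a brush-border peptidase, 0.918), over 44 pools each.

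Other rows were grouped by symbol into 2 families, fatty acid binding and retinoid-binding, and not by protein structure. None of those reported here passed the edgeR test. By edgeR, 6371 of all 22703 genes had an unadjusted p under 0.05 at FBSA 5 mg/L. Of the 8 other FABP rows tested there, edgeR called 0 and DESeq2 called 1, higher. Of these rows 1, FABP3, had an unadjusted p under 0.05. Their median log2 fold change was 0.13, with these values: fabp1b.2 (0.12), FABP3 (0.32, the heart and muscle form in mammals), fabp4a (0.13) and fabp4b (0.79, the fat-cell form in mammals), both FABP7 rows (0.24 and 0.12, the brain form), fabp10b (-0.24) and fabp10a. The zebrafish liver form fabp10a (ENSDARG00000038439) held 61, 74.7 and 29.3 CPM in the FBSA controls and 20.1, 43.3 and 16.4 at 5 mg/L, which overlapped, with a log2 fold change of -1.05 ± 0.64 (adjusted p = 0.288, edgeR). Its values at 5 mg/L of PFOS and PFECHS were 1.62 ± 0.65 (adjusted p = 0.513) and 1.83 ± 0.66 (0.704). Among the 10 other retinoid-binding rows, 0 were called by edgeR or DESeq2 and 3 had an unadjusted p under 0.05, all higher, with a median of 0.22. They are RBP4 (the plasma retinol carrier), rbp4l, rbp5, RBP7, rbp7a, 2 CRABP1 rows, 2 CRABP2 rows and another RBP2 row. That RBP2 row (ENSDARG00000093774) held 5.04, 5.73 and 1.02 CPM in the FBSA controls and gave -0.58 ± 0.72 (adjusted p = 0.64). Without FBSA control replicate 3, edgeR called 2 FABP rows and 1 retinoid-binding row higher. No difference between the 5 genes and these other rows was tested.

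**Figure D3:**
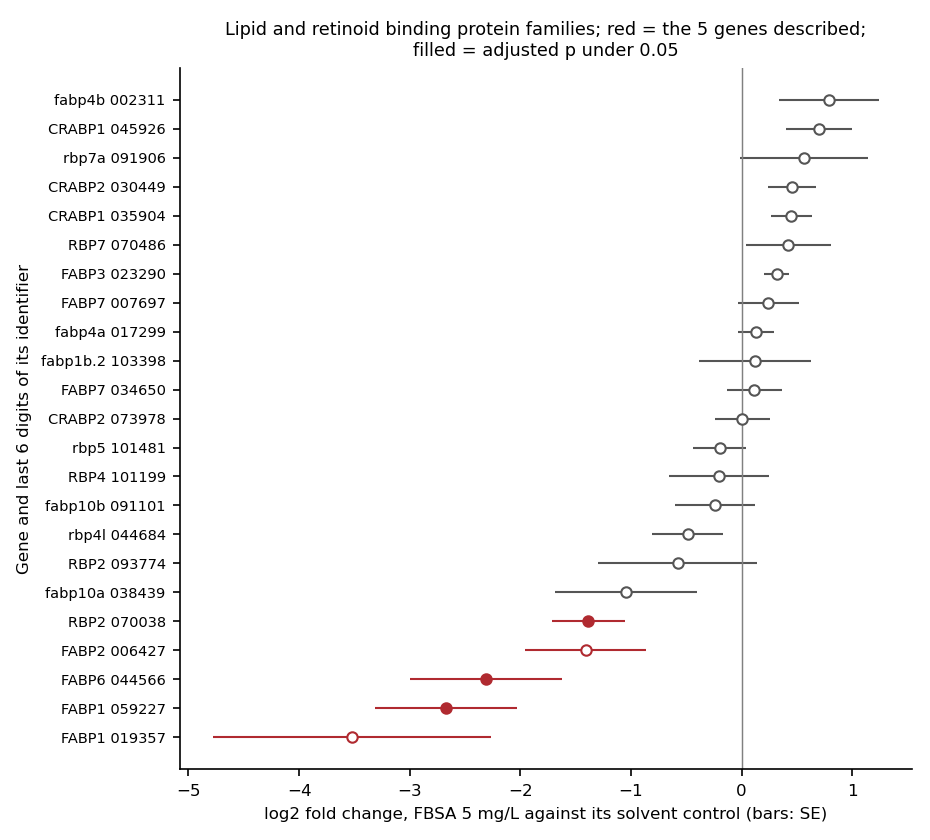
Log2 fold change at FBSA 5 mg/L against its solvent control, with standard errors, for the rows of the fatty acid binding and retinoid-binding families reported here; red marks the 5 genes described and a filled point an adjusted p under 0.05. The 5 red points lie lowest, from -3.52 to -1.39, and 0 of the other rows is filled.

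Lipid transport genes act beside these carriers. Of 29 genes for fatty acid uptake, re-esterification and lipoprotein export, edgeR called 5 lower and 0 higher at FBSA 5 mg/L (median log2 fold change -1.26). Of all genes tested, edgeR called 5.44% lower there. In this list 1 gene had an unadjusted p under 0.05 on the higher side, and DESeq2 called 10 lower and 1 higher. The 5 called by edgeR were apoa4a (ENSDARG00000101160, -2.66 ± 0.59, adjusted p = 0.00514), apoa4b.2 (ENSDARG00000020866, -2.81 ± 0.71, 0.0117), apoa4b.3 (ENSDARG00000094929, -3.19 ± 0.81, 0.0124), SLC27A4 (ENSDARG00000017047, a fatty acid transporter, -1.68 ± 0.47, 0.0212) and apoa1a (ENSDARG00000012076, -1.58 ± 0.47, 0.03). The 5 lower calls became 0 without FBSA 5 mg/L replicate 3, 1 without FBSA control replicate 2, 10 without FBSA 5 mg/L replicate 2 and 12 without FBSA control replicate 3. The apoa4 copies are alike in sequence and may share reads.

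Of 25 genes of retinoid metabolism, 2 fell and 1 rose (median -0.046), a share near the 11.2% of all genes called at FBSA 5 mg/L. These were bco1l (ENSDARG00000103659, a carotenoid oxygenase-like gene, -2.40 ± 0.68, adjusted p = 0.0228), BCO2 (ENSDARG00000055722, a carotenoid oxygenase, -0.97 ± 0.28, 0.0246) and DHRS3 (ENSDARG00000044982, a retinal reductase, higher by 0.73 ± 0.23, 0.0388). Among 24 bile acid genes 1 was called lower, near the 5.44% of all genes called lower, with a median of -0.74. HSD17B4 (ENSDARG00000101239, a peroxisomal enzyme) fell by 0.69 ± 0.17 (adjusted p = 0.0116, edgeR) and no other passed. The canalicular organic anion exporter abcc2 (ENSDARG00000014031, -1.85 ± 0.65, adjusted p = 0.0574) and CYP7A1 (ENSDARG00000069018, the rate-limiting enzyme of bile acid synthesis, -2.56 ± 0.91, 0.0606) did not. In the list of PPAR receptors and their targets edgeR called 0 of 26 (median -0.17), with 8 at an unadjusted p under 0.05. By edgeR 6371 of all 22703 genes had such a p at FBSA 5 mg/L. In the PPAR list DESeq2 called 2 lower and 2 higher, and edgeR called 5 lower without FBSA 5 mg/L replicate 2. In the retinoid and bile acid lists 0 genes were called without control replicate 2 or exposed replicate 3, and 5 retinoid genes fell without exposed replicate 2 and 5 bile acid genes without control replicate 3. In the PPAR list the smallest edgeR p-values belonged to LPL (ENSDARG00000087697, 0.96 ± 0.34, adjusted p = 0.0606), pparg (ENSDARG00000031848, -2.20 ± 0.79, 0.0636) and EHHADH (ENSDARG00000070029, -0.94 ± 0.34, 0.068). Under PFOS and PFECHS neither edgeR nor DESeq2 called any of the other 200 genes of these families, lists and the marker lists that follow, at any concentration. Of these, 1 to 15 had an unadjusted edgeR p under 0.05, as did 425 to 3431 of all 22703 genes.

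Markers of the gut and its glands were read in the same libraries. Of 22 enterocyte markers 8 fell at FBSA 5 mg/L (median log2 fold change -2.05) and 0 were called higher, among them myo7bb (ENSDARG00000077201, -2.36 ± 0.68, adjusted p = 0.0237), ANPEP ENSDARG00000103878 (-2.87 ± 0.83, 0.0243) and chia.2 (-3.03 ± 0.94, 0.0347). Of 24 exocrine pancreas markers 10 fell and 0 rose, with a median of -1.61, led by amy2al2 (ENSDARG00000009443, -2.54 ± 0.60, 0.00767), ela2 (ENSDARG00000056744, -3.03 ± 0.73, 0.00879) and amy2a (ENSDARG00000013856, -2.18 ± 0.57, 0.0141). In the liver list 1 of 20 fell, near the 5.44% of all genes called lower. It was fetub (ENSDARG00000053973, -2.01 ± 0.67, 0.048); the list's median was -0.97, and cyp2ad2 (ENSDARG00000021172, -1.81 ± 0.73, 0.0994) and serpina1 (ENSDARG00000090286, -1.87 ± 0.80, 0.119) came next. Of 9 markers of lysosome-rich enterocytes, ctsbb (ENSDARG00000101051, -2.71 ± 0.83, 0.0327) and lrp2b (ENSDARG00000007906, -2.50 ± 0.78, 0.0365) fell and DAB2 (ENSDARG00000053091) rose by 0.74 ± 0.18 (0.00922), with a median of -0.88. Of 7 genes listed as goblet and enteroendocrine markers, insl5a (ENSDARG00000070966) fell by 2.82 ± 0.82 (0.0257). NEUROD1 (ENSDARG00000019566, 0.62 ± 0.22, 0.0648) and sst2 (ENSDARG00000014190, 1.64 ± 0.66, 0.0992) did not pass. The list's median was 0.62, the value of NEUROD1 to these digits. By library total, without TMM scaling, NEUROD1 had a median of 269 CPM over the pools and AGR2 one of 30.6 CPM. Gene length was not taken into account. In whole embryos the cells that gave this RNA were not identified, so the median is not a measure of these gut cells. With one pool left out, no gene of any marker list was called by edgeR without FBSA control replicate 2 or without FBSA 5 mg/L replicate 3. The enterocyte count was 1 without control replicate 1, 3 without exposed replicate 1 and 15 without control replicate 3, and the exocrine pancreas count was 6 without exposed replicate 1 and 14 without control replicate 3. The liver count ran from 0 to 3. DESeq2 called 14 enterocyte and 14 exocrine pancreas markers lower, and neither tool had a member of these 2 lists higher at an unadjusted p under 0.05. In the fit restricted to FBSA libraries edgeR called 0 genes of the whole table, with 3548 at an unadjusted p under 0.05, and hence 0 in each of these lists.

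Summed over its 22 genes, the enterocyte list stood at 904, 860 and 182 CPM in the FBSA controls, at 1583, 168 and 197 CPM at 0.001 mg/L, at 939 and 342 at 0.1 mg/L, at 211, 86.1 and 461 at 1 mg/L and at 174, 252 and 103 CPM at 5 mg/L. The third FBSA control pool lay within the range of the exposed pools. In the PFOS and PFECHS groups the sum ran from 195 to 974 CPM. One of the 22 markers, MEP1B ENSDARG00000037533, was at 0 in 22 of the 44 pools, while VIL1 (villin, of the brush border) was at 0 in none. By library total, without TMM scaling, their medians were 0.0157 and 107 CPM. The summed exocrine pancreas list ran from 305 to 1209 CPM in the FBSA controls and from 169 to 333 at 5 mg/L, and the liver list from 377 to 1610 and from 367 to 1027 CPM.

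Log2 CPM of FABP2 followed the summed enterocyte markers with r = 0.943 over 44 pools (Spearman 0.965, and 0.954 after subtracting group means), FABP1 ENSDARG00000059227 with 0.898, RBP2 with 0.788 and FABP6 with 0.737. The low FABP1 row stood at 0.051. For the exocrine pancreas sum the values were 0.859 for FABP2, 0.896 for FABP1 ENSDARG00000059227, 0.727 for RBP2 and 0.591 for FABP6, and for the liver sum 0.8, 0.795, 0.582 and 0.548. The CPM of each gene was also set against the summed CPM of the 22 markers, which do not include it. For FABP2 this ratio was 25.7%, 26.4% and 44.3% in the FBSA controls and 40.5%, 35.5% and 42.2% at 5 mg/L. For FABP1 ENSDARG00000059227 it was 13.6%, 22.1% and 32.5% and then 14%, 9.21% and 10.6%. RBP2 stood at 6.88%, 7.57% and 27.3% and then at 20.6%, 7.96% and 11.7%, and FABP6 at 6.9%, 4.2% and 13.95% and then at 8.36%, 3.92% and 0.515%. On this scale the exposed and control pools of each of the 4 genes overlapped, to different degrees. For FABP2 and RBP2 every exposed pool lay within the control range. For FABP1 ENSDARG00000059227 only the exposed pool at 14% did, and those at 9.21% and 10.6% lay below every control. For FABP6 only the pool at 8.36% did, and the others lay below every control. Whether the ratios differ was not tested, so the overlap does not show that they are alike. The part of the pancreas and liver markers in these results was not tested.

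**Figure D4:**
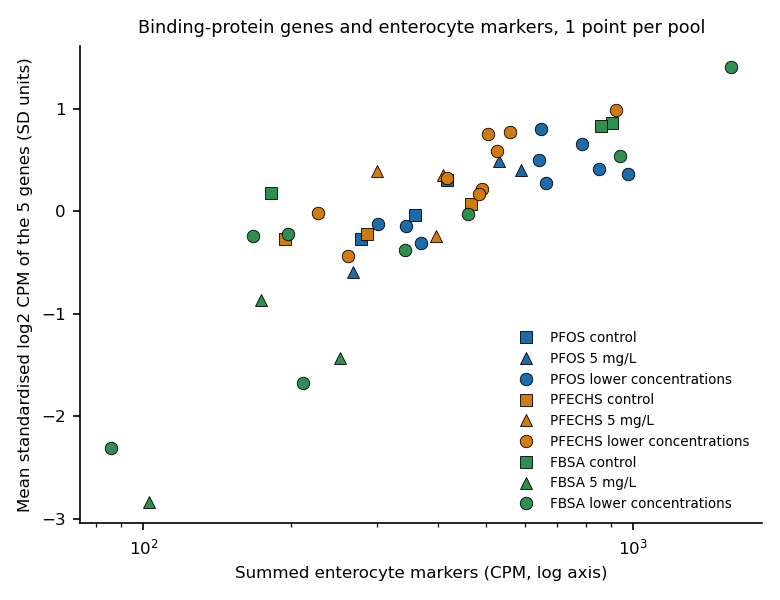
Mean standardised log2 CPM of the 5 genes (vertical axis, in SD units over the 44 pools) against the summed CPM of 22 enterocyte markers (horizontal log axis), 1 point per pool, with the compound by colour and control, 5 mg/L and lower concentrations by shape. The 3 FBSA 5 mg/L pools sit at 103 to 252 CPM with means from -2.83 to -0.87. The FBSA control pool at 182 CPM lies among them on the horizontal axis with a mean of 0.18. That mean weighs the barely detected FABP1 row like the others, and this row had its highest count of all pools, 29, in this control pool.

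The FBSA pools were not spread evenly over the table: 2 of the 3 FBSA controls and 0 of the 3 FBSA 5 mg/L pools were among its last 11 libraries. Place in the table is all the files give, and no batch is labelled. With place as a term the 5 genes were all called at FBSA 5 mg/L (edgeR). FABP1 ENSDARG00000059227 stood at -2.77 ± 0.68 (adjusted p = 0.0136), FABP6 at -2.59 ± 0.70 (0.0214) and RBP2 at -1.42 ± 0.35 (0.0139). FABP2 stood at -1.79 ± 0.55 (0.0366) and the low FABP1 row at -4.08 ± 1.35 (0.05 after rounding, under the threshold). Over all genes the calls in that fit stayed within 1.5-fold of the 2550 (11.2%) called without the term.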

How the data were processed

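The authors deposited expected counts (estimated reads per gene, not whole numbers) for 25859 identifiers in 44 libraries. This unit was settled from the values: between 54.1% and 79.8% of the values in each library carry decimals. The submitters' processing notes name FastQC, MultiQC and Trimmomatic, which check and trim reads. For the estimating program, the strand setting and the genome build, the sources used here give nothing; coordinates are therefore left out. Such estimates divide reads between similar genes. A row without a gene name was left out (1).

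Counts were rounded, filtered with filterByExpr by group (22703 genes kept) and scaled by TMM. One edgeR 4.0.16 quasi-likelihood fit in R 4.3.3 covered the 15 groups (29 residual degrees of freedom, common dispersion 0.068), with 36 comparisons, each adjusted by Benjamini-Hochberg over all genes at 0.05. An SE is the size of the log2 fold change over the root of F. Log2 CPM used a prior count of 2. Groups came from the sample labels and every column was mapped to a pool. The steps were run on simulated counts in which each gene had the same spread in all groups. That run therefore cannot show how the wider spread of the FBSA pools affects the calls. Alternatives were other size factors, no filter, DESeq2 1.42.0, only the libraries compared, table place or the replicate number as a term, and each pool left out.

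The 5 genes and the 11 lists (235 symbols, matched by symbol) were chosen with earlier results of these data known. From each list outside the 2 families up to 3 genes with the smallest p at FBSA 5 mg/L were named, and every called gene where fewer than 6 were called. The 5 genes most like the members by Pearson r, and the most alike gene of each, were named too. Genes without a symbol, or with a provisional name (one with a colon or of a clone), were left out of that search. The counts of groups that do not overlap, the 9 shared controls and the first 33 libraries were added after values had been seen. Some rows of the retinoid-binding family are not reported here.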

Additional observations from a re-analysis of the deposited data

Results flagged for a closer look

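In the fit of all 44 libraries, FABP1 ENSDARG00000059227 was called at 5 mg/L in the test of the difference itself between compounds. The change under PFOS exceeded that under FBSA by 3.22 ± 0.87 on the log2 scale (adjusted p = 0.0326, edgeR), and that under PFECHS exceeded it by 3.14 ± 0.87 (adjusted p = 0.0242, edgeR). The gene was higher than the control mean in PFOS (log2 fold change 0.54 ± 0.60) and PFECHS (0.47 ± 0.60), where neither change was called. It was lower in all 3 FBSA pools. Its control means, which enter the differences, were 124 CPM for FBSA, 60.1 for PFOS and 46.3 for PFECHS. Both calls were lost with only the libraries compared. They were also lost without FBSA control replicate 2 (adjusted p = 0.132 and 0.0996, edgeR) or FBSA 5 mg/L replicate 3 (0.134 and 0.0991). The FBSA pools enter both differences, so they are not independent of each other.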

How the results depend on the processing

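Calls among the 5 genes depended on which libraries set the spread. At FBSA 5 mg/L the 3 calls became 5 with table place as a term and 0 with only FBSA libraries, and ran from 0 to 4 with one pool left out. The 5 calls of the FBSA trend became 0 with only FBSA libraries (2 to 5 with one pool left out). The 2 calls of the FBSA order became 4 with table place, 4 with DESeq2, 4 in the first 33 libraries and 0 with only FBSA libraries (0 to 4). The single call of PFOS minus FBSA at 5 mg/L became 0 with only the libraries compared and 2 in the first 33 (0 to 2), and that of PFECHS minus FBSA 0, 0 in the first 33 and 2 with DESeq2 (0 to 2). At FBSA 1 mg/L the count ran from 0 to 2. With table place the calls over all genes at FBSA 5 mg/L stayed within 1.5-fold of 2550. Over all genes the 2550 calls at FBSA 5 mg/L became 0 with only FBSA libraries, 1427 against the 9 controls and 408 in the first 33 libraries, with 141 to 5197 when one pool was left out. The 2538 of the FBSA trend and the 1668 of the FBSA order also became 0 with only FBSA libraries, and the latter 4821 in the first 33. PFOS minus FBSA at 5 mg/L went from 1116 to 210 with only the libraries compared, 253 in the first 33 and 2319 with DESeq2, PFECHS minus FBSA from 2081 to 996 and 33, and PFOS at 5 mg/L from 3 to 0 with the block and 98 with DESeq2.

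Over all 36 comparisons, 180 values of the 5 genes were recomputed under each alternative where it could be had. Direction and side of the threshold stayed in 180 of 180 with other size factors and without the filter, 163 of 167 with DESeq2, 175 of 180 with the replicate number as a block, 170 of 180 with table place, 161 of 173 with only the libraries compared, 66 of 75 against the 9 controls, 158 of 180 in the first 33 libraries and 1560 of 1730 with one pool left out. The other values lost or gained a call or changed sign, and 0 of those that changed sign were called in either fit. The values listed next are those in the comparisons whose values are printed, a choice made after the sign changes were seen; FABP1 alone means ENSDARG00000059227.

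On the log2 scale, against the 9 controls the sign turned to -0.6784 (low FABP1 row, PFOS 0.1 mg/L), -0.2566 and -0.1343 (FABP1, PFECHS 1 and 5 mg/L), 0.7255, 0.4986 and 0.2705 (low FABP1 row, FABP1 and FABP2, FBSA 0.001 mg/L), and 0.3733 and 0.2525 (FABP1 and FABP2, FBSA 0.1 mg/L). In the first 33 libraries, with 1 FBSA control pool, it turned to 0.2724 (low FABP1 row, PFOS 1 mg/L), 0.0361 (RBP2, PFOS 5 mg/L), 0.6287, 0.5815, 0.5875 and 0.0492 (low FABP1 row, FABP1, FABP2 and FABP6, FBSA 0.001 mg/L), 0.0426 (FABP2, FBSA 0.1 mg/L) and 0.1585 (RBP2, PFOS minus PFECHS at 5 mg/L). With table place it turned to 0.0198 and 0.1776 (FABP6, PFOS 0.1 and PFECHS 5 mg/L). Among same-numbered pools of different groups, all compounds together, deviations correlated with a median r of 0.00224 over 301 pairs (-0.609 to 0.61). Pairs within a compound were not looked at separately, so this median cannot show whether the numbers pair pools there. The main fit did not take the numbers to pair pools. The replicate block changed no call of the 5 genes and turned the sign to 0.0997 (FABP6, PFECHS 5 mg/L) and -0.0192 (FABP1, PFOS minus PFECHS at 5 mg/L).

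Leaving out one pool gave ranges across 0 for the low FABP1 row of -1.7716 to 0.1457 (PFOS 0.001 mg/L), -1.1824 to 0.729 (PFOS 0.1), -0.7617 to 0.2988 (PFOS 1), -1.4442 to 0.6238 (PFECHS 0.1), -0.9282 to 1.1379 (PFECHS 1) and -0.6515 to 0.4303 (FBSA 0.001). For FABP1 they were -0.1372 to 0.6226 (PFOS 0.1), -0.094 to 0.6275 (PFECHS 1), -1.1512 to 0.1218 (FBSA 0.001) and -0.1912 to 0.449 (PFOS minus PFECHS at 5). For FABP2 they were -0.114 to 0.3431 (PFOS 0.1), -0.0651 to 0.5984 (PFECHS 1), -0.0207 to 0.6397 (PFECHS 5), -0.983 to 0.3077 (FBSA 0.001), -0.7171 to 0.4243 (FBSA 0.1) and -0.2349 to 0.4944 (PFOS minus PFECHS at 5). For FABP6 they were -0.311 to 0.0378 (PFOS 0.1), -0.3077 to 0.6458 (PFECHS 5), -0.3313 to 0.6165 (PFOS minus PFECHS at 5) and -0.9233 to 0.1642 (PFECHS against FBSA controls). For RBP2 they were -0.2136 to 0.027 (PFOS 0.1), -0.1456 to 0.0495 (PFOS 1), -0.2221 to 0.0702 (PFOS 5), -0.1529 to 0.0334 (PFECHS 5), -0.313 to 0.194 (FBSA 0.001), -0.0882 to 0.1674 (FBSA 0.1) and -0.1704 to 0.1219 (PFOS minus PFECHS at 5). Causes were not tested. The low FABP1 row held 0 to 29 counts in each pool. The other 4 genes had an SD of 0.653 to 1.51 in log2 CPM within FBSA groups.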
